A study of Rattus norvegicus with 35 samples.

Results

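The complement and coagulation genes of rat liver examined here were 37 genes of a fixed list, 20 of coagulation and fibrinolysis and 17 of complement. Each gene was represented by the probe set that named it alone and had the highest mean over all arrays, a choice that used no difference between groups. 32 of the 37 were measured in this way, 17 of coagulation and 15 of complement, among 14217 genes represented in all. F7, F11 and F13b had no probe set of 1 gene, and C2 and Cfb were named only together, by 4 shared probe sets, so these 5 genes have no value here. Gene expression was measured on 35 Affymetrix rat arrays, 1 per liver, and values are on the log2 scale. The animals were male Harlan Sprague Dawley rats that began the study at 7 weeks of age and received the brominated flame retardant BTBPE in corn oil by gavage, at 5 ml/kg, on 5 consecutive days. The vehicle group (corn oil, 6 rats) was compared with 0.07, 0.69, 6.88, 68 and 680 mg/kg per day, with 6 rats per dose except 5 at 68 mg/kg, and the left liver lobe was taken 1 day after the last dose. All doses share the same vehicle rats.

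Hepatocytes make and secrete most of the proteins of the clotting and complement cascades, both of which are chains of proteases that circulate as inactive precursors. In coagulation the chain ends with thrombin, which cuts soluble fibrinogen into fibrin, and inhibitors of the serpin family and the plasmin system limit or dissolve the clot. Complement is started by antibodies, by mannose-binding lectins or by slow turnover of C3, and it ends with C5 cleavage and assembly of C6 to C9 into a membrane pore. Many of these genes are switched on in hepatocytes by HNF1, HNF4 and C/EBP factors, and fibrinogen is also induced by interleukin 6 through STAT3.

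Promoters of 5 genes are shown because the results turn on them: C6 had the largest spread between rats, C5 the largest downward differences from vehicle, and the fibrinogen genes are the subunits of 1 protein. The letters are from RefSeq on the GRCr8 assembly, are written 5′ to 3′ on the strand of the gene, and stop before the first base that the annotation gives the gene. For C6 and Fgg that base lies upstream of the start in the promoter table, so the letters end 37 and 154 bases before that start. C6 is on the + strand at chr2:55573383-55573595, C5 on the - strand at chr3:38759469-38759718, Fga on the + strand at chr2:170671919-170672168, Fgb on the - strand at chr2:170700876-170701125 and Fgg on the + strand at chr2:170652833-170652928. Capitals mark matches, on either strand, to CTGGGA (the core of interleukin 6 response elements), TTNNGNAA (a C/EBP core) or the core of the HNF1 site, which in C5 is the longest run of capitals.
C6: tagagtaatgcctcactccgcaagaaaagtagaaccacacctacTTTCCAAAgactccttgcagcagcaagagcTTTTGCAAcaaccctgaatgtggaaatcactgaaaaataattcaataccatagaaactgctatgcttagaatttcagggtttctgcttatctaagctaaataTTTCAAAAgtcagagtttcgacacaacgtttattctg
C5: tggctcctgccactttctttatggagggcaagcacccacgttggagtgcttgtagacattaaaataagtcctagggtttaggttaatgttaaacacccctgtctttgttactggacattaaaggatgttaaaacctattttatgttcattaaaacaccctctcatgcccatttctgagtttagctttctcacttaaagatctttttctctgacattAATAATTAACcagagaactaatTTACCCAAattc
Fga: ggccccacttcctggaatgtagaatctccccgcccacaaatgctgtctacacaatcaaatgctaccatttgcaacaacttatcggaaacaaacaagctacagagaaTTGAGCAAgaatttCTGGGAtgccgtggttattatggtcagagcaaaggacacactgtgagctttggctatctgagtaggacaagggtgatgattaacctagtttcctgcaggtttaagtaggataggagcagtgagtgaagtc
Fgb: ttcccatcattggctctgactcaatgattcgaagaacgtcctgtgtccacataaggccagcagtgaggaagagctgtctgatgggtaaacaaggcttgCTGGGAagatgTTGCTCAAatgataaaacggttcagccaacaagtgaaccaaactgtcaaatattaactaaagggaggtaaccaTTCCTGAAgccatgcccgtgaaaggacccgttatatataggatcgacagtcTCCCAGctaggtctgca
Fgg: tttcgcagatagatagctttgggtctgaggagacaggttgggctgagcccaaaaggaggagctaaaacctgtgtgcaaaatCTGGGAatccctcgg
C6 held 3 matches to the C/EBP core and none to CTGGGA, C5 held 1 C/EBP match and 1 HNF1 match, and Fga, Fgb and Fgg each held CTGGGA. Over the 250 bases before the start, CTGGGA was found in 13 of the 26 measured genes with a promoter in the table and in 25.7% of all 33469 promoters. The C/EBP core was found in 17 of 26 and in 37.2% of all. The HNF1 core was found in 2 of 26, Plg and C5, and in 0.323% of all. CAAAGTNCA, an HNF4 core, was found in 1 gene, F9, and in 1.06% of all, and TATAAA in 1 gene, Fgg, and in 12.9% of all. The TATAAA of Fgg and a second CTGGGA of that gene lie in the 154 bases not shown. The longer motifs do not contain the shorter ones, and a match is only a run of letters.

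All 32 genes were expressed well above the array medians, which lay between 4.71 and 4.79. Their mean values ran from 8.29 for C6 to 13.75 for Fgg, and 16 of them had a mean above 12. The highest value of any array lay between 14.23 and 14.44, so the brightest of these probe sets were close to the top of the measured range, and whether this narrows their spread was not tested. The tissue label was checked against hepatocyte markers: 10 of 10 measured markers lay above the lowest array median, and their mean stayed between 12.92 and 13.10 in every rat. No arrays held identical values.

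Most of these genes varied little between rats. The standard deviation within dose groups (29 residual degrees of freedom) had a median of 0.064 over the 32 genes, or 4.50%, against 0.139, or 10.1%, over all 14217 genes. Bright probe sets vary less in general: over the 876 genes with a mean above 10 the median was 0.078, and over the 29 listed genes with such a mean it was 0.061. The SD was under 0.1 in 27 of the 32. Coagulation genes had a median SD of 0.055 and complement genes 0.068. Across the 32 genes SD was lower where the signal was higher (Spearman rho -0.78, a description across genes, which are not independent replicates), and across the 876 bright genes rho was -0.26.

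**Figure D1:**
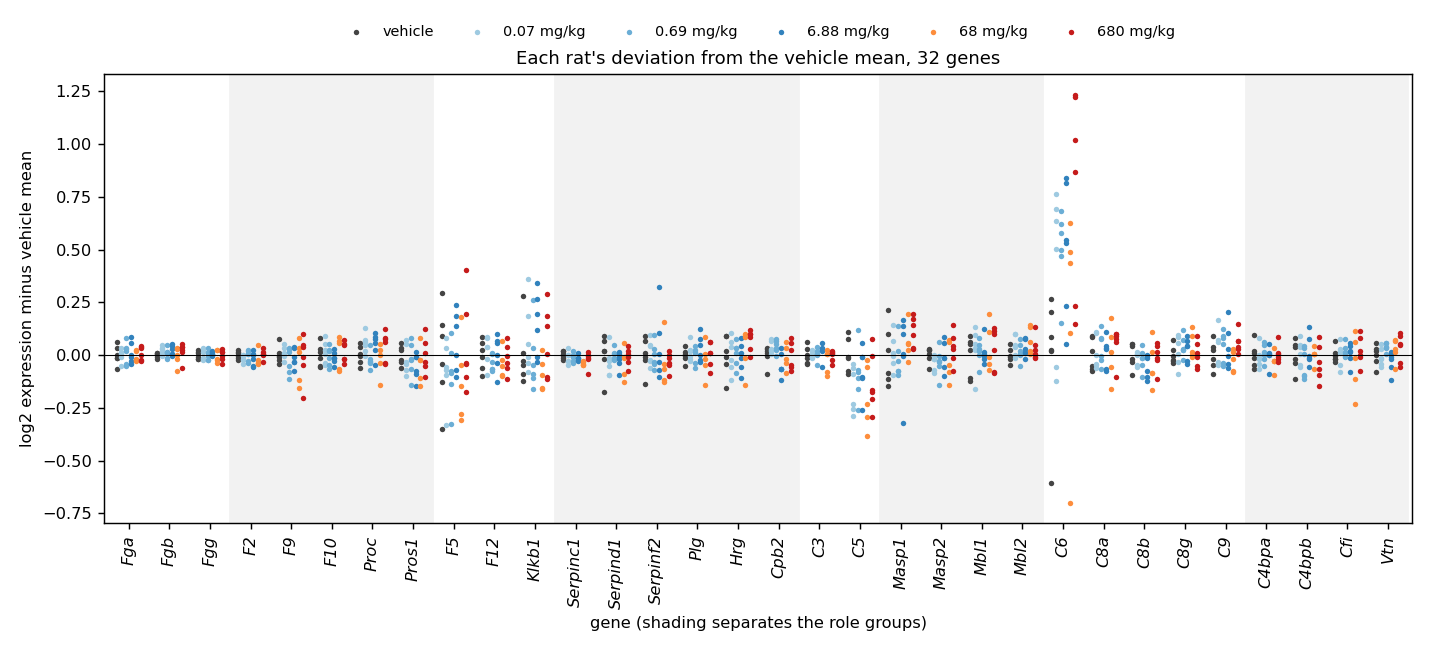
Deviation of each of 35 rats from the vehicle mean, in log2 units, for 32 genes ordered by role and coloured by dose group. Most genes stay within 0.25 of the vehicle mean in all rats, F5, Klkb1, Serpinf2, C5 and Masp1 spread further, and C6 spans 1.93 log2 units.

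Fibrinogen, the precursor of fibrin, is built from 3 chains that are encoded side by side. Fga (alpha chain) had group means from 13.61 to 13.63 and an SD of 0.040, the largest of the 3, while Fgb (beta chain) had an SD of 0.029 and Fgg (gamma chain) 0.023. Fga has a second bright probe set, with a mean of 11.72 and an SD of 0.091, which correlated with the first at r = 0.39 and had the same sign of difference at 3 of 5 doses. Fgg ran from 13.70 to 13.78 over all 35 rats, a 1.06-fold range. None of the 3 chains differed from vehicle by more than 0.022 at any dose.

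The vitamin K-dependent proteins are the clotting proteases prothrombin (F2), factor IX (F9) and factor X (F10), and the anticoagulants protein C (Proc) and protein S (Pros1). F2 varied least, with an SD of 0.026 and a 1.07-fold range over the rats. Pros1 varied most, with an SD of 0.072, and its group means lay between 10.38 at 6.88 mg/kg and 10.43 at vehicle and 680 mg/kg. The 5 genes gave fitted differences between -0.053 (Pros1, 6.88 mg/kg) and 0.055 (Proc, 0.07 mg/kg).

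Factor V (F5, the cofactor of factor X) and plasma prekallikrein (Klkb1) were more variable than the vitamin K-dependent genes. The SD of factor XII (F12) lay within the range of those genes. F5 had an SD of 0.18, larger than that of 79.8% of all genes, and its 35 values ran from 9.30 to 10.05, a 1.68-fold range. Its vehicle rats ran from 9.30 through a median of 9.67 to 9.94, and its 68 mg/kg rats were 9.37, 9.34, 9.60, 9.50 and 9.83. The vehicle rats of F5 thus covered nearly the whole range of the dosed rats. Klkb1 had an SD of 0.15 and a 1.44-fold range, and F12 an SD of 0.068.

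Of the clotting inhibitors and fibrinolysis genes, antithrombin (Serpinc1, the main inhibitor of thrombin) had the smallest SD of all 32 genes, 0.023. Serpinc1 ran from 13.26 through a median of 13.28 to 13.30 in vehicle rats and was 13.26, 13.24, 13.23, 13.25 and 13.24 in the 68 mg/kg rats. All 5 rats at 68 mg/kg were below all 6 vehicle rats, by a mean of 0.040 on the log2 scale (SE 0.034; limma, Benjamini-Hochberg adjusted p = 0.999). It was the only 1 of the 32 genes whose rats did not overlap the vehicle rats, and it did so only at 68 mg/kg. Of all genes 0.0914%, 0.127%, 0.12%, 0.162% and 0.106% lay wholly below vehicle from 0.07 to 680 mg/kg, and 0.0492%, 0.0211%, 0.0774%, 0.218% and 0.0985% wholly above. Antiplasmin (Serpinf2, which blocks plasmin) had the largest SD of these 6 genes, 0.093, with 1 rat at 6.88 mg/kg reaching 11.28 against a median of 10.95 in that group. Heparin cofactor II (Serpind1), plasminogen (Plg), the plasminogen-binding protein Hrg and the fibrinolysis inhibitor Cpb2 had SDs of 0.061, 0.054, 0.077 and 0.048.

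The activation genes measured were C3, the central component cleaved by all complement pathways, and C5, whose cleavage starts pore assembly. C3 had an SD of 0.036 and never differed from vehicle by more than 0.029. C5 had an SD of 0.12. It ran from 10.72 through a median of 10.79 to 10.92 in vehicle rats, and the 68 mg/kg rats were 10.57, 10.42, 10.78, 10.75 and 10.51. The group means of C5 at all 5 doses lay below the vehicle mean, but the rats of every dose overlapped those of vehicle.

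The lectin pathway genes encode the mannose-binding lectins Mbl1 and Mbl2 and their proteases Masp1 and Masp2. Masp1 had the largest SD of the 4, 0.11, and Mbl2 the smallest, 0.048. Masp1 means ran from 8.96 at 0.69 mg/kg to 9.09 at 680 mg/kg, where 6 of 6 rats were above the vehicle mean, a difference of 0.11 (limma adjusted p = 0.994). Its dimmer probe sets, with means of 6.06 and 5.85, correlated with the bright one at r = -0.30 and -0.25 over rats, so they did not follow the same differences between rats. Masp2 and Mbl2 each have a second bright probe set (means of 10.35 and 9.85). These correlated with the first at r = 0.43 and 0.55 and had the same sign of difference at 1 of 5 doses.

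The terminal genes encode the proteins of the membrane attack pore, C6, the C8 subunits C8a, C8b and C8g, and C9. C6 stood apart from the other 31 genes: its SD of 0.38 was larger than that of 98.2% of all genes, and its values ran from 7.18 to 9.12, a 3.82-fold range. Vehicle rats of C6 had a lowest value of 7.28, a median of 7.94 and a highest of 8.15. The 0.07 mg/kg rats had 7.76, 8.45 and 8.64 for the same 3 quantities, the 0.69 mg/kg rats 8.04, 8.42 and 8.57, and the 6.88 mg/kg rats 7.93, 8.42 and 8.72. Every one of these ranges overlapped that of vehicle. The 68 mg/kg rats were 7.99, 7.18, 8.32, 8.37 and 8.51, which included the lowest C6 value of all rats. The 680 mg/kg rats had a lowest value of 8.03, a median of 8.83 and a highest of 9.12, and 4 of the 6, at 8.75 or more, exceeded all rats of the other groups. The C8 genes and C9 had SDs between 0.057 (C8g) and 0.085 (C8a).

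Among the complement regulators, factor I (Cfi, which degrades C3b and C4b) had the largest SD, 0.069, and the C4b-binding protein alpha chain (C4bpa) the smallest, 0.047. The spread of Cfi was greatest at 68 mg/kg, where the rats were 12.38, 12.26, 12.61, 12.48 and 12.56, against 12.46 to 12.56 in vehicle. The beta chain C4bpb and vitronectin (Vtn, which blocks pore insertion) had SDs of 0.068 and 0.049.

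**Figure D2:**
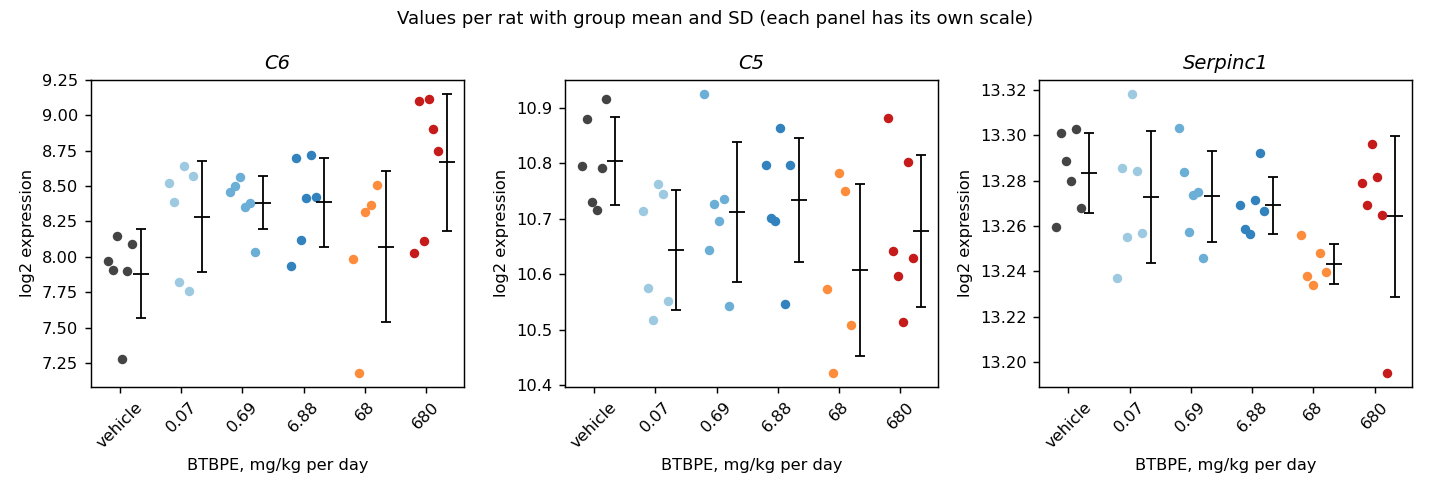
Log2 expression of C6, C5 and Serpinc1 in each rat by dose group, with the group mean and SD beside the points; each panel has its own scale. C6 spans 7.18 to 9.12 and is highest at 680 mg/kg, C5 group means are below vehicle at every dose, and Serpinc1 at 68 mg/kg lies below all vehicle rats within a far narrower range.

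The comparison of each dose with vehicle asked whether BTBPE changed gene expression in the liver. None of the 32 genes passed an adjusted p of 0.05 (limma, adjusted over 31042 probe sets) at any dose, in the test for any difference among groups or in the trend over dose rank. The same held for all probe sets: 0% passed in each of these tests. The one-way analysis of variance without moderation also called 0 at each dose. At an unadjusted p under 0.05, 1 of the 32 genes stood in each test, while 3.64%, 3.16%, 4.63%, 3.88% and 4.95% of probe sets did so from 0.07 to 680 mg/kg, 3.85% for any dose and 5.14% for the trend. A share of 1 in 32 is close to those backgrounds.

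The gene with the smallest p was C6 at 0.69, 6.88 and 680 mg/kg, for any dose and in the trend, and C5 at 0.07 and 68 mg/kg. C6 was higher than vehicle by 0.79 on the log2 scale at 680 mg/kg (SE 0.20, 1.73-fold, 95% interval 1.29 to 2.30), with 6 of 6 rats above the vehicle mean. Its limma adjusted p was 0.988 and lay between 0.643 and 1.00 over the alternatives tried, so the difference did not pass. The C6 differences at 0.07, 0.69, 6.88 and 68 mg/kg were 0.40, 0.50, 0.50 and 0.19, and the slope was 0.10 per dose rank (limma adjusted p = 0.900). Over the 32 genes 17 had a slope above 0, against 50.5% of all genes. The values have no steady order with dose. At 68 mg/kg C6 rested on single rats: the difference was 0.41 without replicate 2 of that group and 0.07 without vehicle replicate 4. All doses share that vehicle rat. Without it the C6 differences at 0.07, 0.69, 6.88 and 680 mg/kg were 0.28, 0.38, 0.38 and 0.67. Over rats, C6 deviations correlated with the 3′ to 5′ signal difference of Actb, a sign of RNA quality, at r = 0.24, with the hepatocyte marker list at -0.38 and with the macrophage list at -0.03, and their part in the C6 values was not tested.

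C5 was lower than vehicle by 0.20 on the log2 scale at 68 mg/kg (0.872-fold, 95% interval 0.785 to 0.968, 0 of 5 rats above the vehicle mean; limma adjusted p = 0.999). At 0.07 mg/kg the fold was 0.894 and 0 of 6 rats were above the vehicle mean (limma adjusted p = 1.00 after rounding). The differences at 0.69, 6.88 and 680 mg/kg were -0.09, -0.07 and -0.13. Leaving out 1 rat brought that at 0.69 mg/kg to -0.06 (without replicate 6 of that group) and that at 6.88 mg/kg to -0.03 (without replicate 5 of that group). C5 differences therefore lay on the same side at every dose without passing the test. Over the 35 rats C5 deviations from group means correlated with the macrophage marker list at r = 0.57. With the lymphocyte list r was 0.57 and with the endothelial list 0.39. For the platelet and blood, cholangiocyte, neutrophil, hepatocyte and stellate lists r was -0.49, -0.27, -0.20, -0.11 and 0.06. With the 3′ to 5′ signal difference of Actb r was -0.25, and the part of RNA quality in the C5 values was not tested. These correlations are descriptions with no test. Of 11 macrophage markers measured, all above the lowest array median, 0, 0, 1, 0 and 0 had a mean above vehicle from 0.07 to 680 mg/kg, and none passed the test. The mean over that list ran from 7.97 to 8.57 in vehicle rats, 7.88 to 8.50 at 0.07, 7.63 to 8.73 at 0.69, 7.89 to 8.72 at 6.88, 7.60 to 8.48 at 68 and 8.03 to 8.47 at 680 mg/kg. Of 8 lymphocyte markers, 4 of them above the lowest array median, 0, 2, 2, 1 and 1 were above vehicle, and the list mean ran from 4.98 to 5.26 in vehicle and from 4.64 to 5.30 at 68 mg/kg. Of 8 endothelial markers, all above that median, 1, 0, 1, 1 and 4 were above vehicle, and the list mean ran from 7.40 to 7.54 in vehicle and from 7.32 to 7.46 at 68 mg/kg. Of 6 platelet and blood markers, 4 of them above that median, 4, 6, 2, 2 and 1 were above vehicle, and the list mean ran from 6.36 to 6.55 in vehicle and from 6.05 to 6.53 at 68 mg/kg. The part of these cells in the C5 values was not tested, and in whole liver fewer cells of a type and less RNA per cell cannot be told apart.

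For the other 31 genes the data bound the differences closely. In 31 of 32 genes, all but C6, the 95% interval lay within 1.5-fold of vehicle in both directions at each dose. Coagulation genes had median log2 differences of 0.010, -0.0028, 0.0064, -0.024 and 0.0025 from 0.07 to 680 mg/kg, and complement genes 0.011, 0.016, 0.012, -0.0016 and 0.032. With each array left out in turn the sign of several of these medians turned, as at 68 mg/kg for complement (-0.031 to 0.015) and at 6.88 mg/kg for coagulation (-0.0094 to 0.011). The medians over all genes were 0.00098, -0.0050, -0.0054, 0.0031 and 0.0024. Of the 32 genes 21, 16, 19, 9 and 21 had a mean above vehicle, and of all genes 50.6%, 46.7%, 47%, 51.7% and 51.1% did. At 68 mg/kg 2 of 17 coagulation genes and 7 of 15 complement genes were above vehicle. The genes are correlated, so these counts carry no test.

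**Figure D3:**
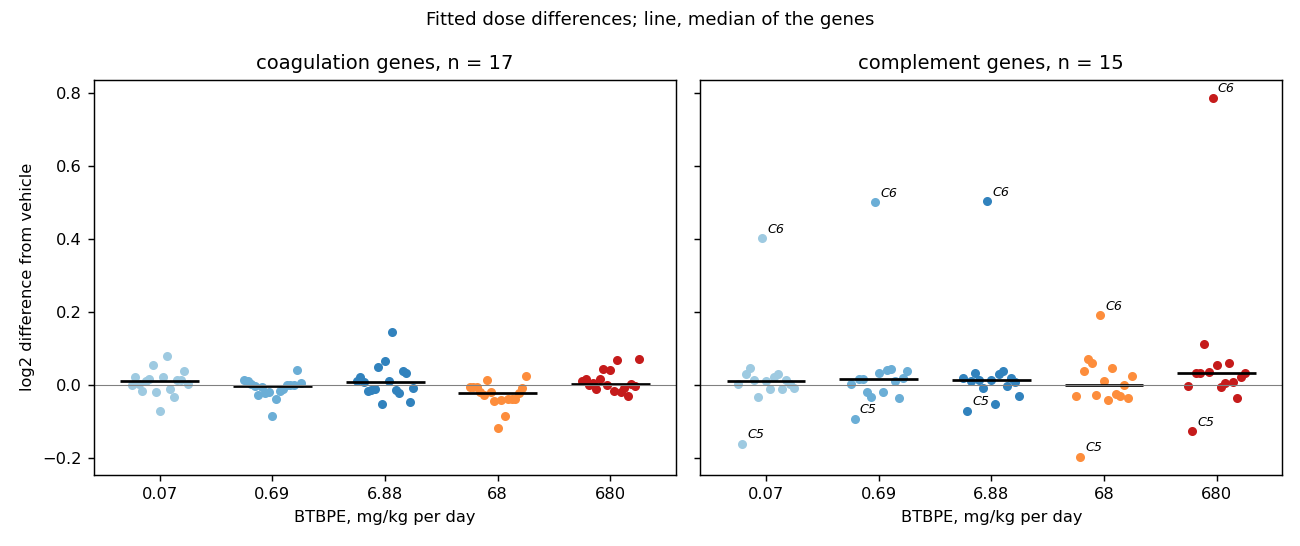
Fitted log2 difference from vehicle for 17 coagulation genes (left) and 15 complement genes (right) at each dose, 1 point per gene, with a line at the median. The medians stay between -0.024 and 0.032, and C6 is the only gene above 0.2, at 0.07, 0.69, 6.88 and 680 mg/kg.

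Means above vehicle at all 5 doses were seen in 5 genes, C6, C8a, C8g, Mbl1 and Mbl2, and 14.2% of all genes showed this pattern. For Mbl2 this holds for the probe set used, and its second bright probe set had the same sign at only 1 of 5 doses. Means below vehicle at all 5 doses were seen in 3 genes, Serpinc1, C5 and C8b, and 15.6% of all genes did so. The direction of a run over 5 doses rests in part on the vehicle rats that all doses share.

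The rats were next compared for co-variation, using deviations from dose group means. The score of a rat is its mean deviation over the genes of a class. The complement and coagulation scores correlated at Pearson r = 0.58 and Spearman rho = 0.40 over 35 rats. The relation leaned on 2 rats of the 68 mg/kg group: replicate 2 was lowest in both scores (-0.149 for complement and -0.066 for coagulation) and replicate 5 highest in both (0.078 and 0.081). Without these 2 rats, the farthest from the median of the coagulation score, r was 0.35 and rho 0.31, and without the whole 68 mg/kg group r was 0.27. Within groups r was 0.72 in vehicle, -0.33 at 0.07, 0.76 at 0.69, 0.06 at 6.88 and -0.08 at 680 mg/kg, each over 6 rats. These values were taken only for groups of 6 rats, so the 68 mg/kg group, with 5 rats, has none here. Whether r differed between groups was not tested.

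**Figure D4:**
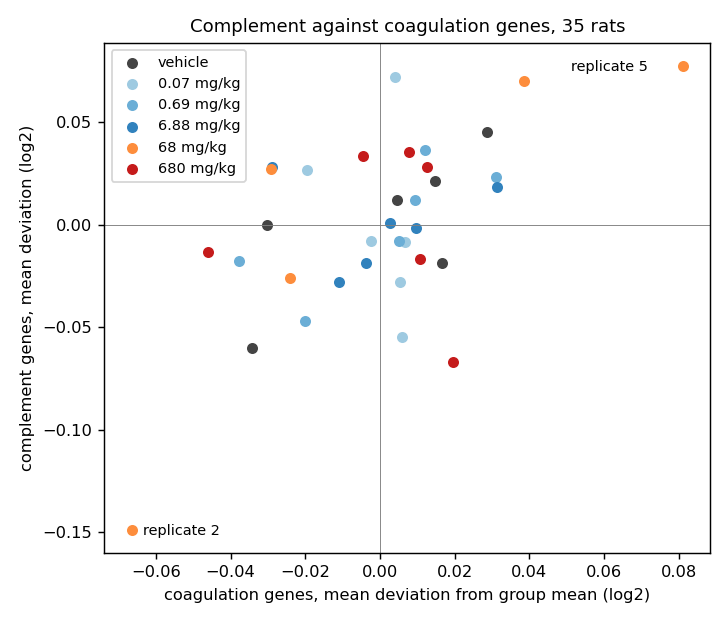
Complement score against coagulation score, both mean log2 deviations from the dose group mean, for 35 rats coloured by group. Replicates 2 and 5 of the 68 mg/kg group lie at the lower left and upper right, and the other 33 rats give r = 0.35.

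C6, the most variable gene, contributes to the complement score. Without C6 the scores correlated at r = 0.46, and at 0.18 when the same 2 rats were also left out. C6 deviations themselves went with the coagulation score at r = 0.51 and with the complement score of the other genes at 0.37. The hepatocyte marker list correlated with the complement score at -0.25 and the coagulation score at -0.34. The 3′ to 5′ signal difference of Actb correlated with them at -0.04 and 0.05. All of these are descriptions over rats that share arrays, and the part of such differences in the scores was not tested.

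Pair by pair the 32 genes were weakly and mostly positively correlated. The median r over 496 pairs was 0.16, with 72.0% above 0, against a median of 0.00 and 50.0% over all pairs of genes and 0.02 and 53.7% over pairs of genes with a mean above 10. Pairs of r 0.5 or more made up 6.85% of the 496, 1.24% of all pairs and 2.83% of pairs of bright genes. The median was 0.12 within coagulation (136 pairs), 0.19 within complement (105) and 0.15 between the classes (255). Whether these medians differ was not tested. After centring each array on its median, these medians were 0.23 within coagulation and 0.25 between the classes, over 1.5 times larger. After quantile normalization again they were 0.07 within coagulation, over 1.5 times smaller, and 0.11 between the classes. The median within complement lay between 0.18 and 0.29 over the alternatives.

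The strongest pairs lay both between and within the classes. Of the 34 pairs with r of 0.5 or more, 18 were between the classes, as were 255 of all 496 pairs. Plg with Masp2 had r = 0.70, F10 with Masp2 0.68, C8a with Cfi 0.66 and Serpinf2 with Plg 0.66. The pairs of Masp2 rest on 1 probe set, with which its second bright probe set correlated at r = 0.43. The r of each pair here is given only for the values as deposited, without another normalization. Cfi had r of 0.5 or more with 7 other genes, and F10, Masp2 and Vtn with 6 each. In contrast Fga, Fgg, Masp1 and Klkb1 had a median r with the other genes below 0, of -0.09, -0.12, -0.04 and -0.01. The lowest r was -0.48, between C9 and Masp1. These genes were picked out for their values, so they carry no test.

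**Figure D5:**
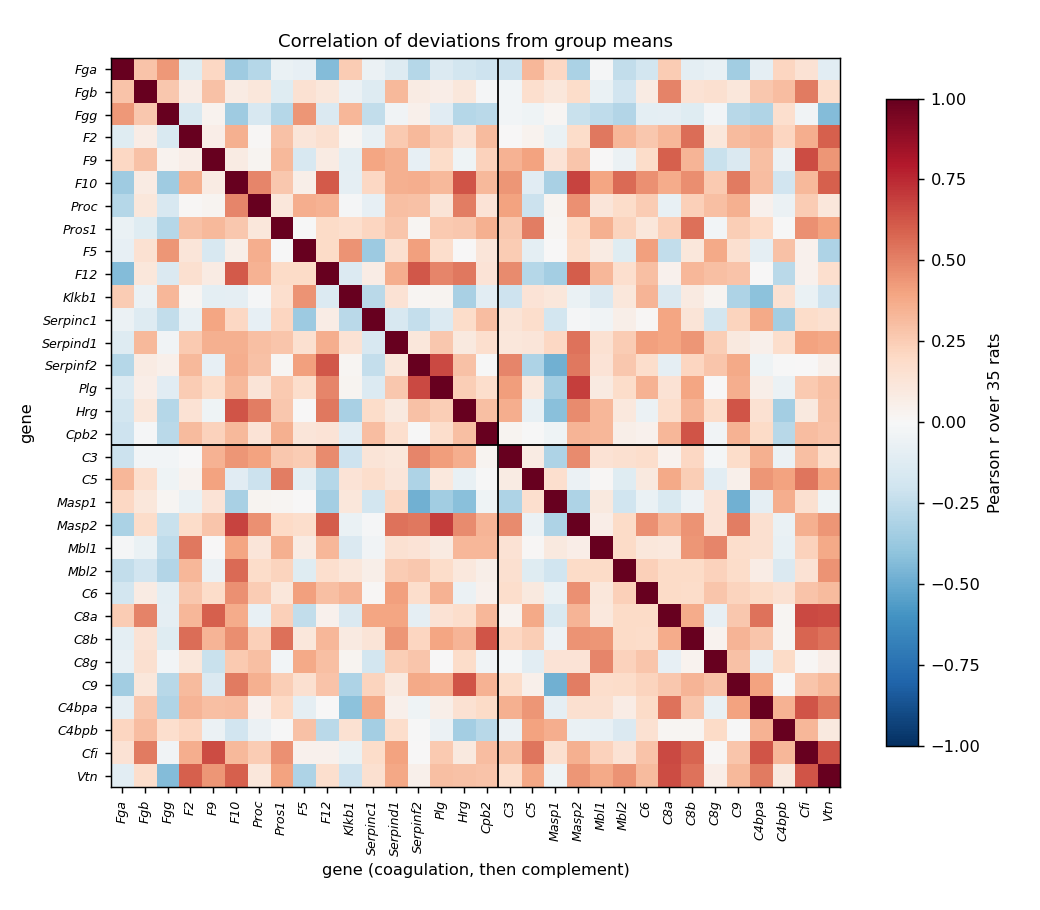
Pearson correlation over 35 rats of deviations from dose group means, for all pairs of the 32 genes; the black lines part coagulation from complement genes. Red is positive and blue negative, and the rows of Fga, Fgg, Masp1 and Klkb1 are bluer than those of Cfi, F10, Masp2 and Vtn.

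Pairs of genes whose proteins are subunits of 1 protein, partners or neighbours in the cascade were tested on their own. Of 15 such pairs 12 were measured, 9 had r above 0, and none had an adjusted p under 0.05 (permutation test of rats within dose groups, 100000 shuffles, two-sided, adjusted over 12 pairs). The largest r was that of Fga and Fgg, 0.43 (permutation p = 0.00627, adjusted p = 0.0752; Spearman rho 0.41, p = 0.0172, adjusted p = 0.206). It was above 0 in 6 of 6 groups and 0.45 without the 2 rats farthest in Fga, but -0.02 when the values were quantile normalized again and 0.24 when all probe sets of a gene were averaged. Fga with Fgb had r = 0.28 and Fgb with Fgg 0.27, the latter falling to 0.05 without the 2 rats farthest in Fgb. C8a with C8b had 0.37 and C4bpa with C4bpb 0.35, whereas Masp1 with Masp2 had -0.31.

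The fibrinogen values depended on how the arrays were scaled. The array medians had an SD of 0.019, close to the spread of the steadiest genes, and 5 of the 32 genes (Serpinc1, Fgg, F2, Fgb and C3) had an SD under 2 times that value. After median centring 5 pairs passed the permutation test: Fga with Fgb at r = 0.55 (adjusted p = 0.0092), Fga with Fgg at 0.64 (adjusted p = 0.00192), Fgb with Fgg at 0.64 (adjusted p = 0.00318), C8a with C8b at 0.47 (adjusted p = 0.0405) and C4bpa with C4bpb at 0.50 (adjusted p = 0.0178). Subtracting a common value from every gene of an array adds a shared term to both members of a pair. The part of such a term in these correlations was not tested. No pair passed when the values were quantile normalized again or all probe sets of a gene were averaged, and some directions turned. Besides Fga with Fgg, quantile normalization took F2 with Serpinc1 from -0.08 to 0.30, and averaging took Fga with Fgb from 0.28 to -0.21. The other probe sets of Fgb had means of 4.73 and 2.75, near or below the array medians. They correlated with the bright one at r = -0.35 and 0.02. The direction of Fga with Fgg, and of F2 with Serpinc1, therefore depends on the normalization. That of Fga with Fgb turned only on averaging, which takes in these dim probe sets.

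Of 49 other complement and coagulation genes, such as C1q, receptors, inhibitors and clotting genes of endothelium, 38 were measured, and 16, 12, 16, 12 and 15 of the 38 had a mean above vehicle from 0.07 to 680 mg/kg, with none past the test (limma). The smallest F-test p was that of Procr, the endothelial receptor of protein C, with means from 5.44 at 0.07 mg/kg to 6.15 at 68 mg/kg and vehicle at 5.82. Next was tissue factor, F3, which starts clotting, with means from 3.69 at 6.88 mg/kg to 4.07 at 0.07 mg/kg, below the array medians. The largest SD was that of A2m, a protease inhibitor and rat acute phase protein, 0.42, with means from 8.69 at 0.69 mg/kg to 9.07 in vehicle; Procr had the next largest, 0.35. Of 13 transcription factors and cytokine signalling genes measured that control such hepatocyte genes 6, 6, 7, 4 and 6 were above vehicle, and of 15 acute phase genes 7, 5, 9, 3 and 7, with none past the test in either list.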

How the data were processed

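The authors deposited 1 log2 expression value per probe set and array, made by RMA with the affy package per the submitters' processing notes, and no source used here gives software versions. That the log base is 2 was taken from RMA's convention and the range of 1.45 to 14.44. RMA background-corrects, quantile normalizes and summarizes probes, so a shift common to all genes is removed. Of 31099 probe sets 57 controls were left out and 31042 tested. Through the platform annotation 20826 probe sets had 1 gene symbol, 436 several and 9780 none. One-way fits over all 35 arrays used limma 3.58.1 in R 4.3.3, with Benjamini-Hochberg adjustment per contrast and a threshold of 0.05; the labels do not say more about replicates than that each array is 1 rat sample, so p-values measure the spread between these samples. The trend used dose ranks 0 to 5. Correlations used Python 3.11.15 and numpy 2.4.6. The fit and the pair test were tested on simulated data. The genes named are the member with the largest SD in each of 8 role groups, those with the smallest p in each test, the smallest SD, the fixed pairs, and of the other list the 2 with the smallest F-test p and the 2 with the largest SD; the strongest and weakest pairs and the genes above or below vehicle at all doses were added after their values were seen. Members, lists and tests were chosen with earlier results of these data known. Alternatives were another normalization, variance model, array weights, probe set rule, dim probe set filter, replicate block and leaving out each array. The number of arrays limits the precision.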

Additional observations from a re-analysis of the deposited data

Results flagged for a closer look

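In each dose group the highest or lowest rat was compared with the others by Dixon's criterion, for 32 genes and 2 scores, 204 groups of values in all. Chance marks about 1 in 20 groups, or 10.2 of 204, and 14 were marked, so the number is near that chance level. The clotting genes marked were F2 at 12.97 in 68 mg/kg replicate 5 (others 12.88 to 12.90), Fgb at 13.46 in 680 mg/kg replicate 5 (others 13.53 to 13.57), Serpinc1 at 13.20 in 680 mg/kg replicate 6 (others 13.26 to 13.30), Klkb1 at 11.61 in vehicle replicate 1 (others 11.21 to 11.34) and Cpb2 at 12.01 in vehicle replicate 1 (others 12.10 to 12.14). The complement genes marked were C3 at 13.56 in 6.88 mg/kg replicate 4, C4bpa at 12.57 in 680 mg/kg replicate 1, C8a at 11.50 in 680 mg/kg replicate 6, Masp1 at 8.66 in 6.88 mg/kg replicate 2, Mbl1 at 10.36 in 0.07 mg/kg replicate 1 and Mbl1 at 10.64 in 6.88 mg/kg replicate 3. C6 was marked in vehicle replicate 4, at 7.28 against 7.90 to 8.15 in the other vehicle rats. The coagulation score was marked at -0.0195 in 0.07 mg/kg replicate 6 and -0.0461 in 680 mg/kg replicate 1.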

How the results depend on the processing

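The counts of genes past the threshold stayed at 0 in every alternative and with each array left out. The smallest adjusted p of any probe set over these settings was 0.0507, at 680 mg/kg. Some median differences of the gene classes did not keep a direction with 1 array left out. The sign turned for complement at 0.07 mg/kg (-0.0042 to 0.023), 6.88 mg/kg (-0.0030 to 0.022) and 68 mg/kg (-0.031 to 0.015). It also turned for coagulation at 6.88 mg/kg (-0.0094 to 0.011) and 680 mg/kg (-0.0012 to 0.0075). The sign held for coagulation at 0.07 mg/kg (0.00042 to 0.016), 0.69 mg/kg (-0.011 to -0.00039) and 68 mg/kg (-0.039 to -0.014). It also held for complement at 0.69 mg/kg (0.0036 to 0.029) and 680 mg/kg (0.014 to 0.040). The correlation of complement and coagulation scores was 0.27 without the 68 mg/kg group and 0.35 with its replicates 2 and 5 left out, both chosen after seeing the data, and lay between 0.42 (without 68 mg/kg replicate 2) and 0.65 with each array left out. It was 0.72 after median centring, the highest of the alternatives. Median centring gave a median pair correlation of 0.23 within coagulation and 0.25 between the classes, and 5 fixed pairs past the threshold in place of 0. Quantile normalization again gave medians of 0.07 within coagulation and 0.11 between the classes and turned Fga with Fgg to -0.02. Over the alternatives the median within complement lay between 0.18 and 0.29. The cause was not tested.

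With the replicate number as a block, 1 fixed pair passed, Fga with Fgg (r = 0.49, adjusted p = 0.044), and no gene passed at any dose. The correlations between arrays showed no pairing by number. Arrays of the same number in different groups had a median correlation of -0.03 over 85 pairs, 15 of them above 0.1. Arrays of other numbers had a median of 0.001 over 425 pairs, 79 of them above 0.1. Of 35 arrays 3 correlated best with an array of their own number. Whether rats of the same number shared handling was not tested. Depth does not apply to arrays; the brightest probe sets lie near the top of the range.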

Other observations

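By deviations from group means over 35 rats, the genes most like C5 among all 14217 were Fyb1 (r = 0.73), Gbp2 (0.71), Cmpk2 (0.71), Irf9 (0.70) and Irf7 (0.70). Fyb1 encodes an adaptor of leukocytes, and Gbp2, Cmpk2, Irf9 and Irf7 are known as interferon-induced genes. The genes most like C6 were Tent5a (r = 0.68), Eif2ak1 (0.64), Epb41 (0.61) and Acp3 (0.61). Both sets were picked as the highest of all genes after their values were seen, and no test was made of them.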
